A study of Caenorhabditis elegans with 2 samples.

Results

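Of the 1379 DMD-9 peaks in the joint list, the authors' thresholded list from the pooled replicates, 239 (17.3%, exact 95% interval 15.4 to 19.4) were intergenic and far from any protein-coding promoter. A peak was counted here when its summit lay outside every protein-coding gene, outside the 5' end windows of those genes (from 1000 bp before an annotated 5' end to 200 bp after it) and over 100 bp from any tRNA gene. Position alone chose these intergenic peaks, and no signal value entered the choice. Summits in other non-coding genes or in pseudogenes were kept. Of the other peaks, 548 had their summit in a 5' end window, 371 in the body of a protein-coding gene and 221 at a tRNA gene.

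The study was chromatin immunoprecipitation with sequencing (ChIP-seq) of whole Caenorhabditis elegans L4 larvae, 48 hours old, grown in synchrony by starving hatched L1 larvae after bleaching. All animals were of strain RJP5357, which carries rp169, a CRISPR insertion in the endogenous dmd-9 gene on chromosome IV that fuses it to GFP, an auxin-inducible degron, a TEV protease site and 3xFLAG. Chromatin sheared to 200 to 800 bp was precipitated with an antibody to GFP. There was 1 group of 2 biological replicates of this 1 strain, with no other genotype, stage or treatment, so the comparisons are between replicates, peak lists and locations in the genome. The tissue in which DMD-9 was bound cannot be read from whole animals, and fewer cells with binding and less binding per cell cannot be told apart.

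DMD-9 belongs to the DM-domain family of transcription factors, named after doublesex of flies and mab-3 of worms, which bind DNA through an intertwined zinc-binding module and are known for roles in sexual differentiation and in neurons. Worm genes lie close together. Peaks far from annotated 5' ends can lie between convergent genes, in long intergenic intervals, in repeats or near small RNA genes. Small nucleolar RNAs (snoRNAs) guide chemical modification of ribosomal RNA, and SL2 RNA donates the spliced leader that is joined to downstream messages of operons. On the X chromosome of hermaphrodites, the dosage compensation complex, which lowers X expression, is recruited at rex sites, and these are rich in a motif called MEX. Many worm repeats are remains of transposons or tandem satellites, and a tRNA-like promoter inside a repeat has the box A and box B that transcription factor IIIC reads in tRNA genes.

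The sequences below are those that recurred under the intergenic peaks of highest signal. They are given from 60 bp to the left to 60 bp to the right of the summit, 5' to 3', on the strand named, from the RefSeq genome sequence of WBcel235, whose coordinates are those of ce11, the build of the peak lists. Peaks were grouped when the 151 bp around their summits aligned over at least 40 bp to the strongest peak of the group. Group 2 held 7 intergenic peaks, of which 5 are shown, including those ranked 2 and 3 among the 239. Capitals mark words of at least 7 bases found in every sequence of its set.
signal 697.4, chrIV:4725543-4725663, + strand: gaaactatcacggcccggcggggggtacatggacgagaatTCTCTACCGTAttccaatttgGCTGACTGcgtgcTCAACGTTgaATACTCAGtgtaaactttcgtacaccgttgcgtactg
signal 578.6, chrII:4047989-4048109, + strand: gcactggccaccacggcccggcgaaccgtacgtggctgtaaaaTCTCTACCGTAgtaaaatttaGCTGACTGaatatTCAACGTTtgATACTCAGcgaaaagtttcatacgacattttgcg
signal 363.5, chrIV:16845522-16845642, + strand: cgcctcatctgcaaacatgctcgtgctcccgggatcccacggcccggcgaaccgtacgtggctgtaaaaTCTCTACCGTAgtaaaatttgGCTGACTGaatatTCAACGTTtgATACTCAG
signal 262.1, chrIV:3313433-3313553, - strand: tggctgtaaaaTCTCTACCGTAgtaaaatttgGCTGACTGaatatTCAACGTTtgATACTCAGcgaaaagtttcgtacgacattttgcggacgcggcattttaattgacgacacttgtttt
signal 237.9, chrIV:9196346-9196466, - strand: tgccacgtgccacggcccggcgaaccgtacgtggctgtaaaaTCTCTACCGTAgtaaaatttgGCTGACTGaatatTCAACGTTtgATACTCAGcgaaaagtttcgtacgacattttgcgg

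Group 3 held 5 intergenic peaks, the strongest of all among them, and group 1 held 8, with the letters of a tRNA-like box A in the capitals. Of group 3, 4 of the 5 are shown, without a peak of signal 262.1, and they come before 3 of the 8 of group 1.
signal 750.2, chrIV:4727975-4728095, + strand: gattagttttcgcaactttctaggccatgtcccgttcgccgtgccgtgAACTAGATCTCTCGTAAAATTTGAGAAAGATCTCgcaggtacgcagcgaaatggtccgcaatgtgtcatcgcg
signal 274.9, chrIV:4720645-4720765, - strand: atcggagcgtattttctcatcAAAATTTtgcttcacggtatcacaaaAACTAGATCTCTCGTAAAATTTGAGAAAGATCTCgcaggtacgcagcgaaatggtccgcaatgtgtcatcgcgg
signal 218.6, chrIV:4184904-4185024, - strand: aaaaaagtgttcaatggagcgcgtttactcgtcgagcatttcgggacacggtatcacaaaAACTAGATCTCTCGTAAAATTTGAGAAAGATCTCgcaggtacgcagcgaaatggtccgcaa
signal 78.33, chrV:4063660-4063780, + strand: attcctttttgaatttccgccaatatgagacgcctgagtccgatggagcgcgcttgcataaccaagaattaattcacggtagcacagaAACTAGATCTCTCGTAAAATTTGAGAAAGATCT
signal 151.5, chrX:13973244-13973364, + strand: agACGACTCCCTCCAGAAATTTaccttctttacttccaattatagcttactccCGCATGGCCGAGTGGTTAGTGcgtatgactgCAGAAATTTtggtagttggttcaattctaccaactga
signal 132.3, chrX:351554-351674, - strand: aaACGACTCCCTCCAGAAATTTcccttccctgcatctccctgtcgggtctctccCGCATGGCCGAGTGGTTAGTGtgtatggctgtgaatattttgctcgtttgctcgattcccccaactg
signal 130.5, chrV:1561289-1561409, + strand: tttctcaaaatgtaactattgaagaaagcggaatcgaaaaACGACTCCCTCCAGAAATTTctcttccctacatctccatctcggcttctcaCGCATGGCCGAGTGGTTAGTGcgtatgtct

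Groups 4 and 5 were tandem repeats with 5 intergenic peaks each, and a single example of each is shown. Capitals mark words in common with the sequences of the next 2 intergenic peaks of the same group.
signal 154.8, chrIV:15896005-15896125, + strand: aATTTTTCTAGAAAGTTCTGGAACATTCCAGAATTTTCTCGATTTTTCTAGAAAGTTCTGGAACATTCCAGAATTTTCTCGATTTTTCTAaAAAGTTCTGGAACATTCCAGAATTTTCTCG
signal 125.8, chrIV:13922434-13922554, + strand: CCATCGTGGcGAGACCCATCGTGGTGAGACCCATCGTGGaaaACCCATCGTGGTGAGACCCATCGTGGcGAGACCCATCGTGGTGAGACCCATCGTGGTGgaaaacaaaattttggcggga

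The X chromosome gave a different recurrence, the 9 bases CGCGCAGGG that form the core of the MEX motif. The core was looked for after the sequences had been read. It is shown in capitals with 20 bp on each side, on its own strand, in the 6 intergenic peaks that held it.
signal 223.9, chrX:11094105-11094153, - strand: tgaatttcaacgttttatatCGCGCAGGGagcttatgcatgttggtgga
signal 168.9, chrX:4209246-4209294, - strand: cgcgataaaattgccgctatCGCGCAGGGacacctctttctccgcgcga
signal 160.2, chrX:806653-806701, + strand: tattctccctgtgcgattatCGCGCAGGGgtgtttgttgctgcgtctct
signal 138.3, chrX:16682152-16682200, - strand: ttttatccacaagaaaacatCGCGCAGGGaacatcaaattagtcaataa
signal 135.3, chrX:8036381-8036429, - strand: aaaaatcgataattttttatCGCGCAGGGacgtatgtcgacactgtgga
signal 86.5, chrX:1837871-1837919, + strand: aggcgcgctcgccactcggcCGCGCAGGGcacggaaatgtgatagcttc

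The intergenic peaks were not a weak class as a whole. Their median signal in the joint list, the caller's signal value for each peak, was 83.0 (range 2.3 to 750.2), beside 85.4 over all peaks, 94.5 in 5' end windows, 75.1 in gene bodies and 96.6 at tRNA genes. The strongest peak of the whole list was intergenic, 8 of its top 25 were, and 18 of its top 100. In the replicates the median was 42.1 in replicate 1 (n = 236 intergenic peaks with a call) and 45.7 in replicate 2 (n = 234). A call here is any overlapping peak of the replicate's ranked list, past the threshold or not. Those lists held 58574 peaks in replicate 1 and 61188 in replicate 2, so a call alone is weak support. The pooled value was close to the sum of the replicates' values, with a median ratio of 0.995.

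Sequence that meets the location rule made up 25.05 Mb, or 24.98% of the genome, so the peaks had a density of 9.54 per Mb. The density was 25.5 per Mb in 5' end windows, 6.93 in gene bodies and 13.8 over the genome. Intergenic sequence far from promoters thus carried fewer peaks per Mb than promoters and somewhat more than gene bodies. Of the 239 peaks, 227 (94.98%) had the same width of 284 bp, as had 95.1% of all peaks, so width carries little information.

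Intergenic peaks were in the replicates' own thresholded lists about as often as all peaks or somewhat less often. Those lists held 569 peaks in replicate 1 and 545 in replicate 2, fewer than the 1379 of the joint list, so many joint peaks of any location are absent from them. Of the 239, 76 overlapped a thresholded peak of replicate 1 (31.8%, against 40% of all peaks), 84 of replicate 2 (35.1%, against 37.9%), 49 of both (20.5%, against 26.7%) and 128 of neither (53.6%, against 48.9%). The conservative list, which the authors made from the replicates against each other, held 184 (77.0%, against 79%) with the same start and end. That rule is stricter than the overlap used for the replicates' lists. A q value at or under 0.05 was given to 110 (46.0%, against 48.7%), and a global irreproducible discovery rate (IDR) at or under 0.001 to 67 (28.0%, against 32.2%). The exact 95% interval lay below the share of all peaks for replicate 1 (25.9 to 38.1) and for both replicates (15.6 to 26.2), and it held the share of all peaks for the other 5 counts.

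Presence in the other lists varied with strength within the 239. All 25 strongest, with signals from 160.2 to 750.2, were in both replicates' lists, in the conservative list and at a q value of 0.05 or under. Of the next 35, with signals down to 112.1, 18 were in both replicates' lists. Of the following 60, 6 were. Of the weakest 119, with signals from 2.3 to 82.8, 0 were in both lists, 106 were in neither, 0 had a q value at or under 0.05, and 67 were in the conservative list. Signal and q value also help to set the threshold of each list, so these counts describe the lists and are not separate evidence.

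**Figure D1:**
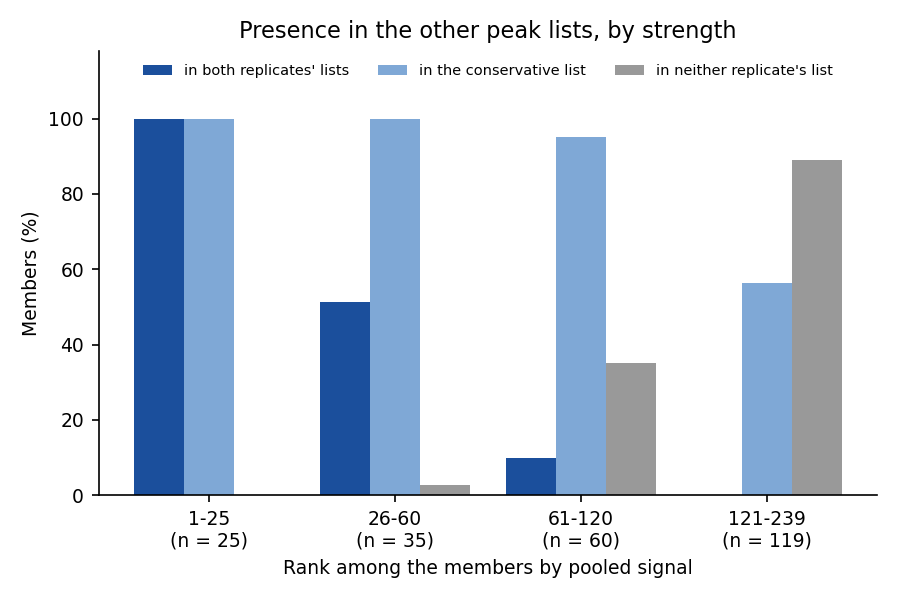
Share of the intergenic peaks (%, y axis) in both replicates' thresholded lists, in the conservative list and in neither replicate's list, by rank of pooled signal among the 239 (x axis, n below each set of bars). All 25 strongest were in both replicates' lists, and 0 of the weakest 119 were.

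The replicates gave values within 2-fold of each other for most intergenic peaks. Over the 231 intergenic peaks with a call in each replicate's ranked list, the median log2 ratio of replicate 1 to replicate 2 was -0.15, against -0.13 over all peaks. The ratio exceeded 2-fold in either direction in 16 (6.93%, close to the 7.90% of all peaks), and in 0 of the 25 strongest. Spearman's rank correlation across peaks, given as a description since peaks share libraries, was 0.52 for the intergenic peaks, 0.85 for the 25 strongest and 0.55 for all peaks. The 25 strongest were ranked on the pooled signal, which is close to the sum of the values compared.

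**Figure D2:**
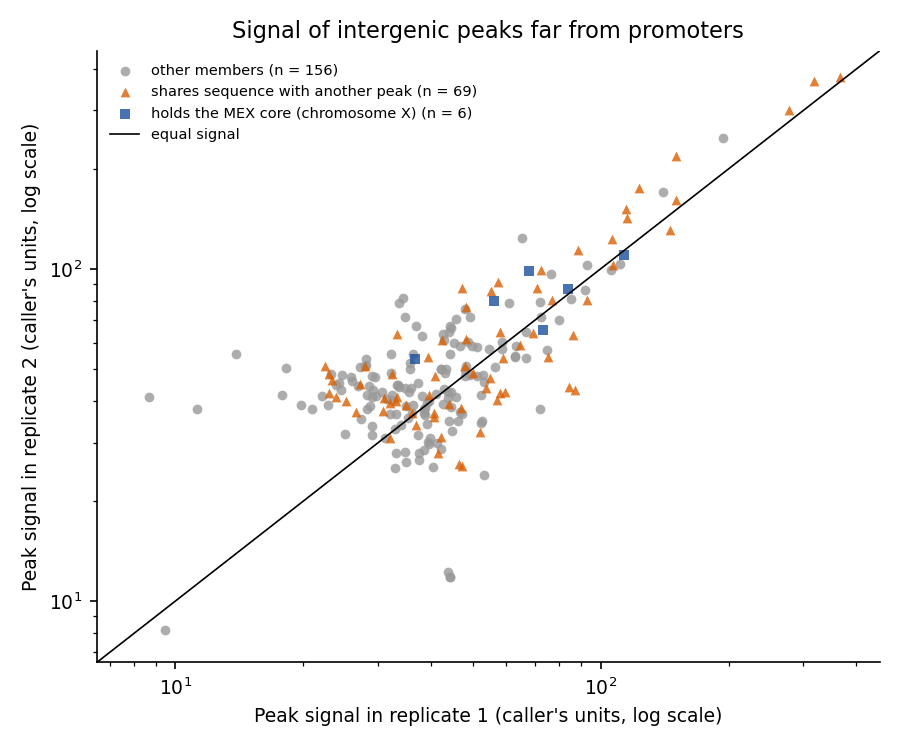
Signal of each intergenic peak in replicate 1 (x axis) and replicate 2 (y axis), both in the caller's units on log scales; triangles share sequence with another peak and squares hold the MEX core. The 25 strongest all lie within 2-fold of the line of equal signal, and the highest 3 are triangles.

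The peak of highest signal was in a 12244 bp interval on chromosome IV between K08F11.1 and fbxb-78, an F-box gene. That peak (chrIV:4727926-4728141) had a signal of 750.2, with 364.9 in replicate 1 and 378.1 in replicate 2, and lay 3173 bp from the nearest 5' end. The second (chrIV:4725506-4725718) was in the same interval and had 697.4, with 317.3 and 369.1. A further peak at chrIV:4720646-4720742, on the other side of K08F11.1, had 274.9, with 145.9 and 130.8. These 3 lay within 7330 bp of each other. In each of the 3 the replicates were within 2-fold of each other, and each stood far above the class median of 83.0.

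The peak ranked 3 among the intergenic peaks was at chrII:4047959-4048165, between K07D4.2 and gadr-4, with a signal of 578.6 (277.9 in replicate 1 and 300.3 in replicate 2). The next (chrV:14055153-14055314) lay between F58D12.1 and F58D12.3 with 449.7 (194.5 and 247.4), and no copy of its sequence was found elsewhere. The peak at chrIV:16845527-16845669, between Y116A8A.150 and the methionine aminopeptidase gene map-2, had 363.5 (150.6 and 218.9). On chromosome I, a peak between imb-3, an importin beta gene, and xpo-2, an exportin gene, had 311.1 (150.1 and 161.6). The peak with its summit in the long non-coding RNA gene linc-128, between cutl-22 and the calmodulin gene cmd-1, had 310.1 (140.0 and 170.8). Replicate 2 was the higher in each of these 5.

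Others of the 25 strongest had signals between 160.2 and 306.4. Beside zip-11, a bZIP gene, the signal was 262.1, and beside C46C2.7 and the WNK kinase gene wnk-1 it was 237.9. Between tsen-34, a subunit of the tRNA splicing endonuclease, and K08D10.11 it was 218.6, between F40E3.3 and mage-1 it was 262.1, and beside ari-1.4 it was 201.9. Between nlp-40, a neuropeptide-like gene, and rcor-1, a CoREST corepressor gene, it was 196.9. Between R12C12.7 and H12I13.1 it was 180.0, and between Y54G2A.19 and Y54G2A.36 it was 169.8. On X, peaks lay between adm-2, an ADAM metalloprotease gene, and K02D3.1 (207.3) and between ZK899.6 and gap-2, a Ras GTPase-activating protein gene (190.1). The other strong peaks are given below with the small RNA genes and the MEX core.

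Shared sequence was common under the strongest intergenic peaks. In all, 71 of the 239 (29.7%, exact 95% interval 24.0 to 35.9) aligned with another peak of the joint list, in 34 groups. Among the 25 strongest, 14 did (56.0%, 34.9 to 75.6), and among the other 214, 57 did (26.6%, 20.8 to 33.1). The share of all peaks that aligned with another is not given here. The same groups also held strong peaks in 5' end windows, nearest to mog-4 (signal 682.7), rpa-2 (598.5) and cnk-1 (521.2). Shared sequence under strong peaks was thus not particular to the intergenic ones. By a separate measure, a second copy of the peak in the genome at 90% identity over at least 50% of its length, 70 had a copy (29.3%, 23.6 to 35.5), against 13.5% of all peaks. That share was 8.39% in 5' end windows, 15.9% in gene bodies and 4.98% at tRNA genes. The share for all sequence that meets the rule is not given here. Bases masked in lower case in the RefSeq genome sequence, as repeats are, made up 27.5% of the intergenic summit windows on average. Over the sequence that meets the rule they made up 40.3%, so the summit windows held less masked sequence than that. Reads from near-identical copies cannot be assigned to a single copy with certainty, and how such reads were treated is not given in the sources used here, so a signal at such a peak may be set by its copies.

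Group 2, whose sequences are printed above, had 11 peaks. The 7 that were intergenic had signals from 169.8 to 697.4, and all 7 were in both replicates' lists. The same sequence lay under peaks at other locations, among them the 5' end window of rpa-2 on chromosome I, which encodes a subunit of replication protein A, where the signal was 598.5. The copies were not all alike: the peak near K07D4.2 aligned to the strongest of the group at 75.8% identity over 99 bp, and the peak beside Y54G2A.19 at 96.1% over 128 bp. In the genome 18 loci aligned to the strongest, and 11 of them carried a peak of the joint list (61.1%, 35.75 to 82.7).

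Group 3 had 6 peaks, 5 of them intergenic, with signals from 78.3 to 750.2. The peaks at 274.9 and 218.6 were identical to the strongest over 88 and 76 bp. Of 13 loci of this sequence, 6 carried a peak (46.2%, 19.2 to 74.9). Group 1, with the tRNA-like stretch, had 12 peaks, 8 of them intergenic with signals from 62.2 to 151.5, 3 of which were in both replicates' lists. Of its 85 loci, 12 carried a peak (14.1%). The remaining 4 peaks of group 1 were in gene bodies, at signals of 64.2 to 82.7.

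The tandem repeats had many loci and few peaks. Group 4 had 8 peaks for 423 loci (1.89%), and its 5 intergenic peaks had signals from 66.3 to 154.8. Group 5 had 6 peaks for 254 loci (2.36%), and its 5 intergenic peaks had signals from 69.1 to 125.8. A peak was thus at most loci of group 2, at close to as many with as without in group 3, and at a small share of loci in groups 1, 4 and 5. Group 6 lay mainly at promoters, with 14 of its 20 peaks in 5' end windows and 3 intergenic. Those 3 had signals from 68.1 to 117.0, and its other 17 peaks from 73.15 to 499.0.

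**Figure D3:**
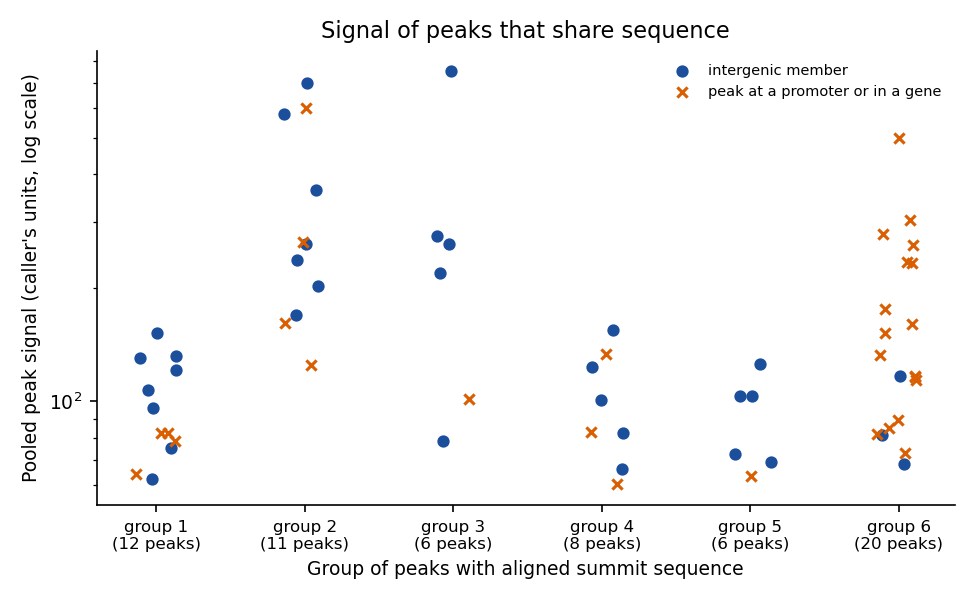
Pooled signal (y axis, caller's units, log scale) of every peak in groups 1 to 6 (x axis), which hold the most intergenic peaks, except that group 7 also holds 3 and is not drawn. The intergenic peaks of group 2 range from 169.8 to 697.4, and those of groups 4 and 5 do not exceed 154.8.

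The intergenic peaks of group 8 lay at genes for SL2 RNA. They were at chrII:5543466-5543651, within 6 bp of sls-2.2, with a signal of 306.4 (123.3 in replicate 1 and 174.7 in replicate 2), and at chrII:5544129-5544412, in sls-2.3, with 99.8 (59.7 and 42.7). The former is between C17C3.24 and ins-13, an insulin-like peptide gene. All 4 loci of this sequence carried a peak, and the other 2 peaks lay in 5' end windows. The annotation lists sls-2.2 and sls-2.3 as small nuclear RNA (snRNA) genes. Other snRNA genes with an intergenic summit inside were T08G5.11 on chromosome V (signal 96.0) and M163.13 on X (signal 92.4).

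Annotated snoRNA genes stood beside some of the stronger intergenic peaks. No summit lay within a snoRNA gene, but 15 (6.28%, 3.55 to 10.1) lay within 100 bp of a snoRNA gene, where 0.107% of the sequence that meets the rule is found. The share of all peaks this close to a snoRNA gene is not given here, so closeness is not shown to be particular to intergenic peaks. Signals of the 15 ran from 78.3 to 215.9 with a median of 137.1, and 7 of the 15 were in both replicates' lists. Of the 15, 9 lay between convergent genes. The strongest was 58 bp from W03C9.9 in a spacer of 246 bp between W03C9.6 and W03C9.1, with 215.9 (111.0 in replicate 1 and 103.1 in replicate 2). Next was a peak 24 bp from F30H5.4, beside the myosin chaperone gene unc-45, with 185.4 (91.8 and 86.7). A peak 11 bp from Y23H5B.10, between Y23H5B.5 and the peptide receptor gene dmsr-2, had 178.2 (76.5 and 96.3). Beside T06C12.16 on chromosome V the signal was 147.4 (71.95 and 79.75).

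Most summits in non-coding annotation were in genes of the ncRNA class. In all, 29 of the 239 (12.1%) had the summit in a non-coding gene or pseudogene, which cover 13.7% of the sequence that meets the rule, and 210 had it in no annotated gene. Genes of the ncRNA class held 21 summits (8.79%, against 1.68% of the sequence), with the highest signals in C17C3.23 (306.4), T27A3.12 (137.9) and H37A05.6 (119.1). Inside such a gene or within 100 bp of it lay 39 summits (16.3%, 11.9 to 21.6), against 3.32% of the sequence. Pseudogenes held 5 (2.09%, against 10.7% of the sequence), the strongest at 145.0 between hmt-1 and sup-35 on chromosome III. The long non-coding RNA genes held 2, linc-128 (310.1) and linc-129 (93.2). The microRNA gene cel-mir-52 held 1 (57.2). The annotated rRNA, antisense RNA and piRNA genes held 0, and piRNA genes cover 0.517% of the sequence that meets the rule. A summit in a gene does not show which transcript it belongs to, and several of these genes overlap others. The shares of all peaks in these non-coding classes are not given here.

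The sites were spread over all 6 nuclear chromosomes. Chromosome X held 62 (25.9%, 20.5 to 32.0), and 22.7% of the sequence that meets the rule lies on X. The density was 12.8 per Mb on chromosome I, 11.1 on III, 10.9 on X, 8.78 on IV, 7.55 on V and 7.54 on II. In the joint list the highest signal on X was 223.9, below the highest on IV (750.2), II (578.6), V (449.7) and I (311.1) and above that on III (185.4). The pooled ranked list also held intergenic X peaks past the same IDR threshold, absent from the joint list, with signals of 2547, 713 and 462.9.

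The MEX core lay under peaks on X and, in the joint list, under none on the autosomes. It occurs 33 times on X, and 13 of these occurrences lay in a peak of the joint list (39.4%, 22.9 to 57.9). On the autosomes it occurs 44 times, and 0 of these lay in a peak (upper bound of the exact 95% interval 8.04%), while the conservative list had a peak at 1 of the 44. In sequence that meets the location rule, 9 of the 15 occurrences on X lay under an intergenic peak, and 0 of 17 on the autosomes did. The 13 were in 10 peaks, of which 6 are intergenic and the other 4 lie in 5' end windows or gene bodies. Of the 10 strongest intergenic peaks on X, 5 held the core.

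The strongest peak with the core, chrX:11094026-11094309 between W04G3.11 and W02H3.3, had a signal of 223.9, with 113.4 in replicate 1 and 110.4 in replicate 2, and held the core at 2 places. At chrX:4209120-4209403, between F20B6.9 and the protein kinase gene hpk-1, the signal was 168.9 (83.9 and 87.2). At chrX:806564-806847, between gtr-1 and F25E2.2, it was 160.2 (67.7 and 98.4), again with the core at 2 places. These 3 peaks were in both replicates' lists. So was chrX:8036273-8036556, between C34D10.1 and xol-1, with 135.3 (73.3 and 65.5) and the core at 2 places. The remaining pair, chrX:16681955-16682238 with 138.3 (56.2 and 80.1) and chrX:1837723-1838006 with 86.5 (36.55 and 53.7), were not. The core lay 8 to 79 bp from the summit in these 6.

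The peak near xol-1 was 4898 bp from its 5' end. The gene xol-1 is the X-linked switch that sets male fate early in sex determination and represses dosage compensation in males. It was the only gene of the 18 listed sex determination genes that was the nearest protein-coding gene on either side of an intergenic peak. None (0) of 10 DM-domain genes, 78 ribosomal protein genes, 50 histone genes and 8 RNA polymerase III and TFIIIC genes was such a neighbour, and 410 of all 19865 protein-coding gene names were.

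**Figure D4:**
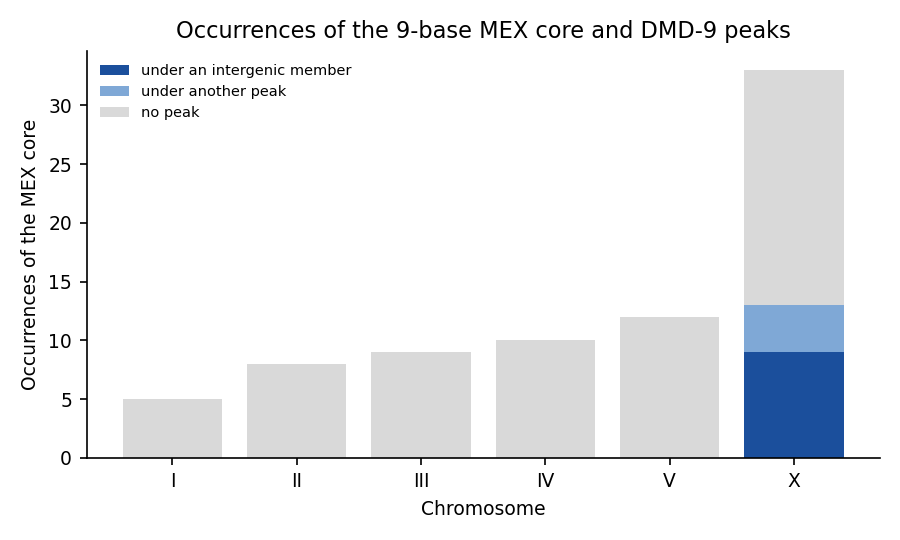
Number of occurrences of the 9-base MEX core (y axis) on each chromosome (x axis), by whether the occurrence lay under an intergenic peak, under a peak at another location or under no peak of the joint list. Peaks cover 13 of 33 occurrences on X and 0 of 44 on the autosomes.

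Other motifs were searched on both strands in the 101 bp around each summit, in windows of that width 400 bp to each side, and in all such windows tiled over sequence that meets the rule. GAGAGA was in 23.4% of the summit windows (18.2 to 29.3), in 6.49% of the flanking windows, in 5.34% of the tiled windows and in 15.4% of the summit windows of all peaks. CTGCGTC was in 6.28%, 1.26%, 0.762% and 5.95% in that order. Box A was in 9.62% of the summit windows, 1.67% of flanks and 1.71% of tiles, and box B (GTTCNANNC) was in 7.53%, 2.51% and 3.35%. Some windows with box A were copies of the group 1 sequence, which are not independent. Without the peaks in groups, a setting chosen after seeing the data, box A was in 7.74% of the summit windows (4.18 to 12.9) and box B in 7.74%. Over all peaks, box A was in 7.90% of the summit windows and box B in 14.5%, with box B in 57.5% of those at tRNA genes. Runs of TTTTT were less common at summits, at 39.7% against 74.3% in flanks, as was TATAAA, at 8.37% against 16.1%. Over all peaks these shares were 44.6% and 4.64%.

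The DM-domain letters were in few windows. ACATTGT was in 1.26% of the summit windows (0.26 to 3.62), 1.46% of flanks and 1.81% of tiles, and TGTTGC, from MAB-3 sites, was in 3.77% (1.74 to 7.03), 1.67% and 4.25%, so its share at summits was above that of flanks and not above that of tiles. CACGTG was in 4.60%, 2.51% and 1.37%, and GGGCGG in 4.60%, 1.67% and 1.60%. TTAGGC, the unit of the worm telomere, was in 3.35%, 1.46% and 2.77%. TTCNNGAA, the core of the heat shock element, which recurs in the group 4 repeat and was added after the sequences had been read, was in 6.28%, 7.74% and 6.76%. Over all peaks the shares were 1.52% for ACATTGT, 4.93% for TGTTGC, 3.41% for CACGTG, 6.02% for GGGCGG, 3.70% for TTAGGC and 3.92% for TTCNNGAA. Each of these lay within the exact 95% interval of the share for the intergenic peaks.

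Windows at the summits were richer in G and C than the sequence that meets the rule, which was not particular to the intergenic peaks. Over all peaks the median GC of the summit windows was 49.5%. By location it was 49.5% in 5' end windows, 48.5% in gene bodies and 51.5% at tRNA genes. For the intergenic peaks the median GC was 48.5%, beside 33.7% over the tiled windows. It was 51.5% in the 25 strongest and 46.5% in the weakest 119. Base composition moves with the motif shares above, since GAGAGA and CTGCGTC hold more G and C than TTTTT and TATAAA, and its part in them was not tested. Peaks with GAGAGA were not the stronger ones: the 56 that had it had a median signal of 78.0, and the 183 without it 83.6.

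**Figure D5:**
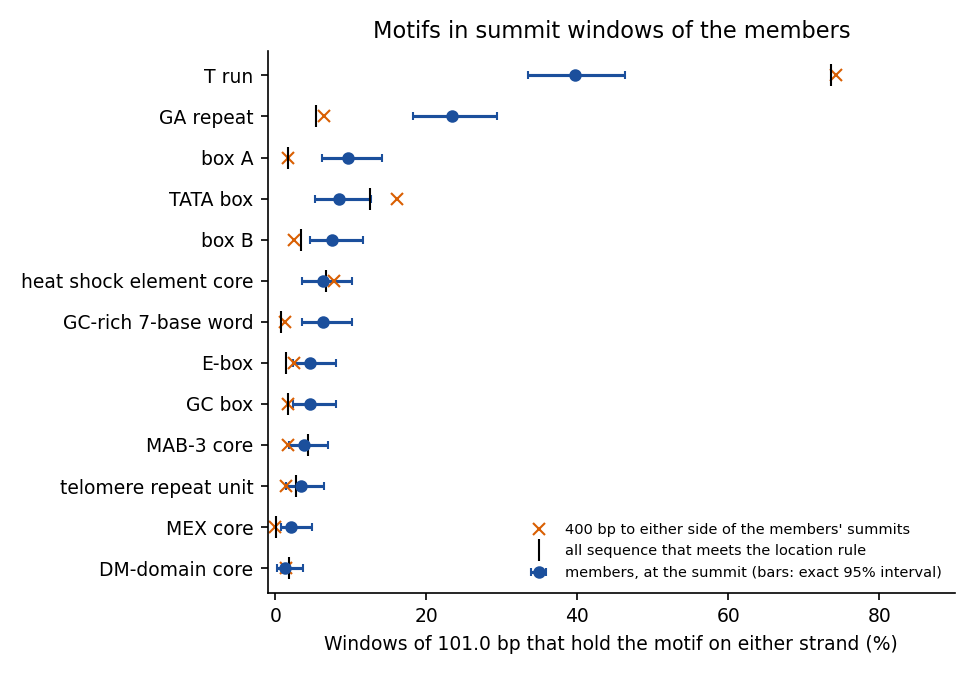
Share of 101 bp windows (x axis, %) that hold each motif (y axis, by name) at the summits of the intergenic peaks, 400 bp to either side and in all sequence that meets the location rule; bars are exact 95% intervals for the summits. The GA repeat stands at 23.4% against 5.34% of all such sequence, and the T run at 39.7% against 73.6%.

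The intergenic peaks lay somewhat closer to protein-coding 5' ends than the sequence that meets the rule. Their median distance to the nearest such end was 2344 bp (95% interval 2096 to 2553, range 593 to 36368), beside 2756 bp over all bases that meet the rule. Of the 239, 50 were over 5000 bp away (20.9%), as were 21.9% of those bases. A distance under 1000 bp arises downstream of a 5' end whose gene ends before the summit. By gene orientation, 57 lay between convergent genes (23.8%, 18.6 to 29.8, against 16.5% of the sequence), 122 between genes in tandem (51.0%, against 53.4%), 57 between divergent genes (23.8%, against 29.8%) and 3 at a chromosome end. The median signal was 91.2 between convergent genes, 82.5 between tandem genes and 81.0 between divergent genes.

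Some intergenic peaks were near each other. Within 10000 bp, 62 of the 239 formed 27 clusters of up to 4, and some of these were only a pair of overlapping peaks. The shares of all peaks in clusters or in such overlaps are not given here. Neither is thus shown to be particular to intergenic peaks. Of the 239, 19 overlapped another peak of the joint list, and all 10 peaks with a signal under 30 were among them. An example is chrIII:13062454-13062737 (signal 93.9) with a neighbour at chrIII:13062653-13062936 (signal 23.9), whose summits are 199 bp apart.

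At the limits of the rule, the peak just inside the upstream window limit was 1009 bp from a 5' end (signal 73.0), and the one just outside it was 988 bp away (signal 122.2). At the tRNA limit the peak just inside was 107 bp away (signal 73.8) and the one left out was 93 bp away (signal 67.1).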

How the data were processed

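DMD-9 ChIP-seq of 2 biological replicates was analysed from 8 deposited peak lists on ce11 (4 ranked, 4 thresholded). Per the labels, the authors derived each list from the immunoprecipitation and a control. The control was not used here, and the sources used here name neither the aligner nor the peak caller. The authors' deposited signal is the caller's value per peak, unscaled between lists. The deposited −log10 values give q values and, in ranked lists, IDR. The deposited score follows the global IDR, up to 1000. Read depth is unknown. In the ranked lists, 32 columns of paired calls were left out, since nothing ties them to a replicate.

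Summits were placed with Ensembl annotation release 115 and the RefSeq WBcel235 sequence. A replicate's signal is that of its best overlapping ranked peak. Overlap needed 1 bp, but a peak counted as in the conservative list only if its start and end were the same there. Copies, groups (E value 1e-8) and group loci (E value 5e-6) were found with BLAST 2.17.0, and other steps used Python 3.11.15, pandas 2.3.3 and scipy 1.17.1. The location classes, the motif search and the overlap of peaks were tested on simulated data, and the other steps were not. Intervals are exact (Clopper-Pearson, 95%) and cover counting error only. Peaks are not replicates of a condition, so no p-value is given.

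The members, lists and motifs were chosen with earlier results of these data known. Named peaks are the 25 strongest, those in small RNA genes, the 3 strongest per other non-coding class, and neighbours among the listed genes. Other named peaks, the MEX core, the heat shock element core and the groups were chosen after their values were seen.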

Additional observations from a re-analysis of the deposited data

Results flagged for a closer look

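A strong peak in the pooled ranked list was missing from the joint list. The ranked list held 65 peaks with a global IDR at or under 0.01 that the thresholded list did not hold, and 60 of these met the location rule. The strongest, chrX:15810941-15811171, between Y7A5A.7 and Y7A5A.8, had a signal of 2547, above the strongest intergenic peak of the joint list (750.2), and it was the only such peak above that value. It was set apart for a closer look because it is absent from the joint list, on which the counts of intergenic peaks above rest. The next was chrX:293350-293479 with a signal of 713. Why these peaks are not in the thresholded list is not given in the sources used here, and it was not tested.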

How the results depend on the processing

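The counts and shares were recomputed under 17 other settings. Of 327 recomputed values, 255 were within the interval of the reported value or its limit of 1.5-fold and 72 were outside it. Each replicate's list alone (without the other replicate) gave 79 to 88 intergenic peaks, 13.9% to 16.2% of all peaks. Of these, 36.4% to 40.5% had a second copy. Their median signal was 66.65 to 68.2 in the values of a single replicate, which are not on the scale of the pooled signal. In both lists were 56.8% to 64.6%. A peak always overlaps the list it comes from, so this share counts overlap with the other replicate only and is unlike the share for the joint list. A global IDR at or under 0.001 gave 67 peaks, 15.1%, a median signal of 145.0, 71.6% in both lists and 47.8% with a copy. A q value at or under 0.05 gave 110 peaks, a median of 116.7, 44.5% in both lists and 37.3% with a copy. Fewer peaks enter both of these.

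The share of all peaks was 12.1% with a 2000 bp upstream window, 15.1% with the whole peak outside genes and windows, 15.2% with the summit in no annotated gene and 12.3% without peaks that have a second copy (15.4% of these in both lists). A copy at 80% identity was found for 36.8%, and over 80% of the length for 17.6%. GAGAGA was in 14.2% of windows of 25 bp to each side and 30.1% of windows of 100 bp, as a longer window has more places. Chosen after seeing the data, leaving out the peaks in groups gave 12.2% of all peaks and 10.1% with a copy, and adding the ranked peaks missing from the joint list gave 20.7%.

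The MEX core on X was in a peak at 10 to 13 of 33 occurrences in each replicate's list alone, the conservative list and the stricter thresholds, and on autosomes at 0 of 44 in each except the conservative list, with 1. Group 2 loci with a peak numbered 11 in each of these. No paired analysis was possible because the study has 1 group. Depth is unknown, so a missing peak was not detectable in these lists and is not shown to be absent.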
